A study of Arabidopsis thaliana with 24 samples.

Results

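Leaves of Castelnuovo-12 (IT), an Arabidopsis thaliana ecotype from Italy, were compared between the most distant of 4 growth regimes. Plants of the high light, cool regime (HLC) received 1000 µmol photons per square metre and second, with leaf temperatures of 14 °C by day and 12.5 °C by night. Those of the low light, warm regime (LLW) received 100 µmol, at 25 °C and 20 °C. High light, warm leaves had 1000 µmol at 25 °C and 20 °C, and low light, cool leaves 100 µmol at 16 °C and 12.5 °C; their levels are given for a few genes, and they also enter the fit, which shares 1 estimate of the spread over all 24 libraries, and the choice of 2 transcript sets. The comparison used 3 HLC and 3 LLW libraries, 6 of the 24 in the series, chosen by their titles, and it was repeated without HLC replicate 3. All plants were vegetative, of 1 sub-line per ecotype, and had a 9 h photoperiod. The youngest fully developed leaf was sampled at the end of the 15 h night as 2 discs of 0.73 square cm, so no library shows leaves in the light. The same contrast in Rodasen-47 (SW), an ecotype from Sweden with 3 HLC and 3 LLW libraries of its own, is set beside it. Titles call the replicates biological, without saying whether these were separate growth runs, and p-values speak only of the variation among these libraries. Because light and temperature change together here, their parts cannot be told apart in this contrast.

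In the cold, Arabidopsis leaves induce CBF transcription factors, which bind the CRT/DRE element and switch on genes for protective proteins and sugars. In strong light, leaves shrink the light-harvesting antenna, raise photoprotection and store more starch, which is broken down during the night. The circadian clock times many of these genes: morning factors such as LHY and CCA1 bind the evening element and repress genes that peak around dusk.

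Total counts of the 6 libraries ran from 14933144 to 16860963, and plastid transcripts took 55.32% to 59.02% of the HLC and 62.38% to 63.2% of the LLW libraries. The libraries also differed in which transcripts they held at all. From the 18 other libraries, 28 transcripts were found that were on (over 20 counts in each library) in the low light groups, cool IT and both SW ones, and off (at most 2 counts) in the high light groups, warm IT and both SW ones. Another 28 had the reverse pattern. The first set holds QQS, a gene without relatives in other plants that acts on starch levels, and the second the immune receptor gene CSA1; both were picked after their values were seen. In the libraries compared, the first set summed to 300.6, 311.9 and 166.5 counts-per-million (CPM) in HLC replicates 1 to 3, against 2.848, 5.212 and 2.674 CPM in LLW. The second set summed to 4.206, 1.484 and 83.98 CPM in HLC, against 234.3, 261.2 and 251.5 CPM in LLW. HLC libraries labelled IT thus carried the set of those low light groups, and LLW libraries the set of those high light groups. Both ecotype labels have libraries with either set, so neither set follows the ecotype label. Whether labels or libraries were exchanged was not tested, so the IT contrast may set different plant material side by side. Regime and plant material cannot be told apart in it, nor in the SW one, where HLC carried the second set and LLW the first. HLC replicate 3 carried both, and whether it holds mixed material was not tested: its second-set sum was 37.92% of the mean where that set is on, with 28 of 28 transcripts above 2 counts, against 11 in HLC replicate 1 and 2 in HLC replicate 2. Nuclear ribosomal RNA took 7.874% of its counts, against 0.1254% to 2.354% in the other 5 libraries.

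**Figure D1:**
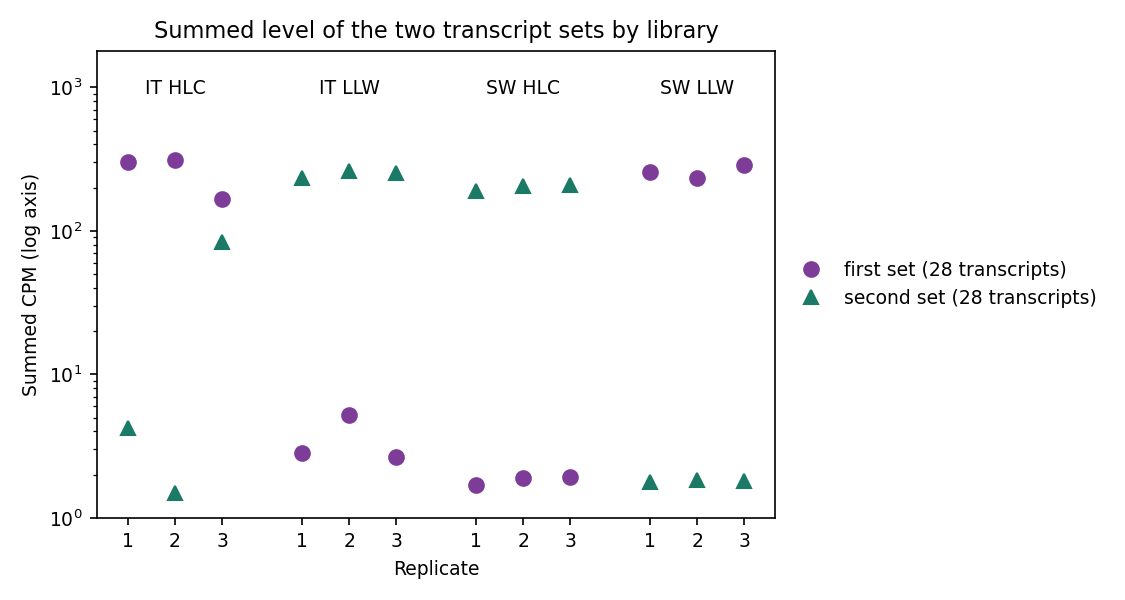
Summed CPM (log axis) of the first set (circles) and the second set (triangles), 28 transcripts each, in every HLC and LLW library of IT and SW. IT HLC replicate 3 is the library with both sets high, at 166.5 and 83.98 CPM.

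HLC replicate 2 stood apart in another way. The standard deviation of log2 differences over the genes tested was 0.758 and 0.756 between it and the other HLC libraries, 0.557 between those, and 0.348 to 0.435 within LLW. It lay at least 4-fold above both others for 92 genes and at least 4-fold below both for 140, on a scale of CPM + 0.5. HLC replicate 3 lay 4-fold above both others for 105 genes and below for 7. Between HLC and LLW libraries the same standard deviation was 1.09 to 1.47, larger than within either group.

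Of 17709 genes tested, 5066 were higher in HLC (28.6%) and 4612 were lower (26%), at an adjusted p below 0.05 in edgeR's quasi-likelihood test. Of all tested genes 54.7% were called in either direction, and for 58.6% the HLC and LLW values did not overlap, so a list with about that share called is like the background. A change of at least 8-fold was found for 702 higher and 566 lower genes, and one of at least 32-fold for 180 and 106. Without HLC replicate 3, 18145 genes were tested, and 4987 were higher (27.5%) and 4502 lower (24.8%), or 52.3% in all. Of the genes called with it, 8887 were called in the same direction without it, 791 were not, and 0 turned round. Of those called in both fits, 490 had a log2 change larger by over 0.5 without it, and 44 one smaller by as much. Without HLC replicate 2, 18044 genes were tested, and 4455 were higher (24.7%) and 4137 lower (22.9%), or 47.6% in all. The same contrast in SW called 8912 of 17709 genes (50.3%), 4388 higher (24.8%) and 4524 lower (25.5%).

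Genes of cold acclimation rose together. Of 20 cold effectors, all of which passed the filter on low counts, 17 were higher in HLC and 0 lower, with a median log2 fold change of 4.97, where all genes tested had a median of 0.06. Without HLC replicate 2 the list median was 3.92, with 17 higher and 1 lower. In SW 16 were higher and 1 lower, at a median of 3.08. RD29A (AT5G52310), a dehydration and cold marker, had 814, 1737 and 822 CPM in HLC, against 2.91, 2.65 and 2.96 CPM in LLW, a log2 fold change of 8.62 ± 0.66 (SE; adjusted p = 4.44e-09). COR15A (AT2G42540), which encodes a chloroplast protein that protects membranes on freezing, had 362, 427 and 301 CPM in HLC, against 2.58, 1.66 and 1.95 CPM in LLW, a change of 7.45 ± 0.58 (SE; adjusted p = 4.77e-09). COR47 (AT1G20440), a dehydrin, had 581, 1059 and 793 CPM in HLC, against 18.4, 22.2 and 16.7 CPM in LLW, a change of 5.41 ± 0.28 (SE; adjusted p = 1.78e-11). For these 3 genes all HLC libraries lay far above all LLW libraries. Groups that do not overlap were a condition of the choice for RD29A and COR15A. KIN2 (AT5G15970), a small cold-induced protein, had 268, 316 and 285 CPM in HLC, against 4.77, 4.71 and 5.13 CPM in LLW, and COR15B (AT2G42530), a near copy of COR15A, had 150.5, 94.3 and 165 CPM in HLC, against 1.85, 1.16 and 2.1 CPM in LLW. GOLS3 (AT1G09350), which makes galactinol for raffinose, had 78.5, 84.2 and 239.5 CPM in HLC, against 0.133, 0.0827 and 0.145 CPM in LLW, and GRP7 (AT2G21660), an RNA-binding protein under clock and cold control, had 187, 438 and 363 CPM in HLC, against 2.65, 1.99 and 2.96 CPM in LLW. For these 4 genes too every HLC library lay above every LLW library, which was a condition of the choice for COR15B and GRP7. The log2 change of GOLS3 was 10.01, or 9.29 without HLC replicate 3. GOLS3 lay under 3 counts in every LLW library, so the size of its change is not resolved. That of COR413-PM1 (AT2G15970), a membrane protein, was 3.87 ± 0.26 (SE; adjusted p = 6.43e-10). COR413IM1, CSP1 and CSP2 did not pass the test, though COR413IM1 did without HLC replicate 1, at 1.28, and CSP2 without HLC replicate 2, at -0.93. LTI30 (AT3G50970), another dehydrin, was at 83.2, 250.4 and 81.8 CPM in HLC, against 0.53, 0.414 and 0.434 CPM in LLW, and its log2 change was 8.20, or 7.46 without HLC replicate 2. Single-factor groups of IT, from another library code series, had RD29A at 5.58 ± 5.92 CPM in high light, warm and 17.1 ± 3.71 CPM in low light, cool leaves (SD, n = 3 each). COR15A stood there at 3.11 ± 3.55 and 61.1 ± 14.6 CPM.

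Of 9 cold regulators, 7 were higher and 0 lower. The CBF genes were scarce in both groups. CBF2 (AT4G25470) had 7.77, 14.8 and 10.4 CPM in HLC, against 0.133, 0.248 and 0.0723 CPM in LLW, a log2 change of 6.15 ± 0.44 (SE; adjusted p = 1.1e-09), and CBF3 (AT4G25480) had 3.62, 15.5 and 7.35 CPM in HLC, against 0.0662, 0.0827 and 0.145 CPM in LLW. CBF1 (AT4G25490) and COR28 (AT4G33980), a clock-linked cold gene, stood at the table's lowest value in all LLW libraries, and against a floor of 3 counts per library they were at least 9.58-fold and 56.9-fold higher. COR27, the paralog of COR28, had 19.4, 25.3 and 23.8 CPM in HLC, against 1.66, 3.64 and 2.38 CPM in LLW. ICE1 (AT3G26744), an upstream activator of CBF genes, had 11, 9.34 and 9.73 CPM in HLC, against 9.74, 10.01 and 8.67 CPM in LLW, with groups that overlapped (adjusted p = 0.609). The CBF genes are near copies, as are COR15A and COR15B and KIN1 and KIN2, so reads may have been split among them.

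The promoters of COR15A and RD29A are printed because they carry the element to which CBF proteins bind. Windows run from 250 bases before to 50 after the annotated start on RefSeq's reference genome (TAIR10.1), not the ecotypes' own sequence. Capitals mark CCGAC, the CRT/DRE core, and CACGTG, the G-box, on either strand. The COR15A window is chr2:17712281-17712580 (minus strand), with 2 cores and 1 G-box, and the RD29A window is chr5:21240467-21240766 (plus strand), with 4 cores.
COR15A: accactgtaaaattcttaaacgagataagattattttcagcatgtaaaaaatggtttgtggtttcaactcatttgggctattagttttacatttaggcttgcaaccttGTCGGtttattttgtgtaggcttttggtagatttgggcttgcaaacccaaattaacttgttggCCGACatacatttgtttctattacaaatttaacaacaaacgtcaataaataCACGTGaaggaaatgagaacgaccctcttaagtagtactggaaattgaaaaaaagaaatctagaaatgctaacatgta
RD29A: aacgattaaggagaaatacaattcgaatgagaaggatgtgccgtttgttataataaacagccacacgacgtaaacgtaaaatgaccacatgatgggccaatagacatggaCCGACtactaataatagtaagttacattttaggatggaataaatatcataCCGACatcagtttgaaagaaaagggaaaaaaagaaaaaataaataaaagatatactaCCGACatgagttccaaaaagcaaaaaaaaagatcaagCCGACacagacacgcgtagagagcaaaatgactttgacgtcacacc
A core lay in 8 of 20 windows of cold effectors (40%), against 16.7% of all 17211 windows of nuclear genes tested. Of the other cold effectors named above as higher, GOLS3, LTI30 and COR413-PM1 had at least 1 core. COR47, COR15B, KIN2 and GRP7 had 0. Among genes higher in HLC the share was 17.6% and among genes lower 15.4%, each close to that of all genes. A match of 5 letters is a description of the sequence and not a bound site.

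**Figure D2:**
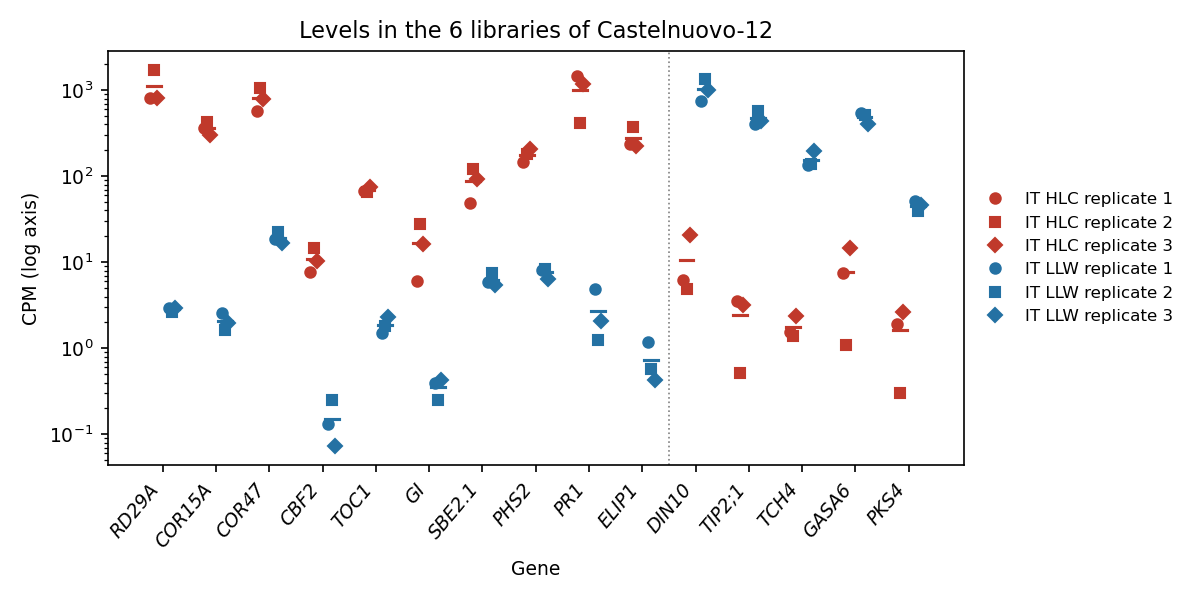
CPM (log axis) of 15 genes in the 3 HLC (red) and 3 LLW (blue) libraries of IT, with a marker shape for each replicate and a bar at the group mean. Left of the dotted line are genes higher in HLC, from RD29A at 814 to 1737 CPM against 2.65 to 2.96 CPM, and right of it genes lower in HLC.

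Clock genes moved in both directions. Of 22 tested, 10 were higher and 9 lower, and 16 moved the same way in SW. TOC1 (AT5G61380), an evening repressor of the clock, had 66.7, 65.9 and 75.8 CPM in HLC, against 1.52, 1.82 and 2.31 CPM in LLW, a log2 fold change of 5.20 ± 0.25 (SE; adjusted p = 6.47e-12). FKF1 (AT1G68050), a blue-light receptor of the afternoon, had 17.6, 41.2 and 35.4 CPM in HLC, against 0.199, 0.166 and 0.289 CPM in LLW, a change of 7.11 ± 0.42 (SE; adjusted p = 9.76e-11). GI (AT1G22770), its partner, had 6.01, 28.1 and 16.2 CPM in HLC, against 0.397, 0.248 and 0.434 CPM in LLW, a change of 5.50 ± 0.57 (SE; adjusted p = 2.05e-07), or 4.88 without HLC replicate 2. In all 3 the groups were apart in every library. PRR5 (AT5G24470), an afternoon repressor, had 70.0, 73.4 and 114 CPM in HLC, against 0.861, 0.91 and 2.17 CPM in LLW, and PRR3 (AT5G60100) had 13.2, 22 and 16 CPM in HLC, against 0.0662, 0.0827 and 0.289 CPM in LLW. A floor of 3 counts stood at 0.199, 0.248 and 0.217 CPM in the LLW libraries. FKF1 and PRR3 lay near or under it there, so the sizes of their changes are not resolved. ELF4 (AT2G40080), part of the evening complex, was at the lowest value in all LLW libraries and at least 5.28-fold higher in HLC. The dawn factor LHY (AT1G01060) was lower in HLC, with 188, 154 and 174 CPM in HLC, against 266, 263 and 254 CPM in LLW, a change of -0.60 ± 0.13 (SE; adjusted p = 0.000529). Its partner CCA1 (AT2G46830) had 212, 147 and 169 CPM in HLC, against 235, 220.3 and 255 CPM in LLW and did not pass the test (adjusted p = 0.145). RVE4, RVE8 and LNK2, activators of evening genes, were lower, with log2 changes of -2.40, -1.23 and -2.04, and so were ZTL at -0.81 and CHE at -2.21. RVE7 (AT1G18330), a relative of CCA1, fell in IT, at -4.21, and rose in SW, at 1.73. HLC replicate 3 held it at 2.6 CPM where the other HLC libraries had 0.426 and 0.174, and without that library the change was -5.88; without HLC replicate 2 it was -3.62.

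The evening element, AAAATATCT on either strand, stood in 5.49% of windows of genes higher in HLC, 1.83% of those lower and 3.06% of all. Among genes higher by a log2 of 3 or more it stood in 69 of 655 windows (10.5%), and among those lower by as much in 10 of 545 (1.83%). Of 22 windows of clock genes 6 held it (27.3%). The windows of TOC1, chr5:24674713-24675012 (plus strand), with 1 evening element, and of GRP7, chr2:9266508-9266807 (minus strand), with 3 evening elements and 1 G-box, are printed with these letters in capitals.
TOC1: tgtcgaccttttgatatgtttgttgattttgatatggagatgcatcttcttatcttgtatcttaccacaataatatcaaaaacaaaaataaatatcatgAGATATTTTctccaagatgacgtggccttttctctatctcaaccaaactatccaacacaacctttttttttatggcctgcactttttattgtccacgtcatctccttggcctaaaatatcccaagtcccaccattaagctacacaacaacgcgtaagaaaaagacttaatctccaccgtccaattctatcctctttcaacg
GRP7: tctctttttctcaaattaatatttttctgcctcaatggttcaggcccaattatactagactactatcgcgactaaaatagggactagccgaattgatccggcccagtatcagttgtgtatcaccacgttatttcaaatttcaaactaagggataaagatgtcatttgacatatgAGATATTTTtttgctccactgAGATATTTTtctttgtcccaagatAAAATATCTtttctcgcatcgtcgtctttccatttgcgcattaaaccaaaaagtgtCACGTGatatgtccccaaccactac

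Starch genes were higher in HLC at the end of the night, for synthesis and for breakdown. Of 18 synthesis genes 13 were higher and 0 lower, and of 17 breakdown genes 13 were higher and 1 lower. SBE2.1 (AT2G36390), a branching enzyme, had 48.5, 121 and 93.3 CPM in HLC, against 5.96, 7.45 and 5.49 CPM in LLW, a log2 fold change of 3.80 ± 0.26 (SE; adjusted p = 8.68e-10), and SS4 (AT4G18240), which starts new granules, had 77.9, 70.2 and 82 CPM in HLC, against 14, 11.8 and 17.4 CPM in LLW. Among breakdown genes, PWD (AT5G26570), which phosphorylates the granule, had 141, 191 and 143 CPM in HLC, against 10.7, 13.3 and 12 CPM in LLW, a change of 3.72 ± 0.21 (SE; adjusted p = 6.45e-11). ISA3 (AT4G09020), a debranching enzyme, had 41.4, 88 and 47.9 CPM in HLC, against 2.65, 1.99 and 2.02 CPM in LLW, PHS2 (AT3G46970), a cytosolic phosphorylase, had 145, 179 and 209 CPM in HLC, against 8.21, 8.27 and 6.36 CPM in LLW, and SEX4 (AT3G52180), a glucan phosphatase, had 39.8, 74.2 and 50.5 CPM in HLC, against 4.57, 5.71 and 5.06 CPM in LLW. In all 4 breakdown genes HLC was above LLW in every library. The exception was BAM9 (AT5G18670), a beta-amylase without known activity, which fell to 14.7, 6.33 and 14.7 CPM in HLC, against 289, 275 and 331 CPM in LLW. In SW the counts were 15 higher and 0 lower for synthesis and 15 and 1 for breakdown.

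Genes of sucrose synthesis and sugar transport moved in both directions. Of 17 genes in the sucrose and sugar transport list, 9 were higher and 7 lower in IT, and 9 and 0 in SW. SUS1 (AT5G20830), a sucrose synthase, had 416, 374 and 357 CPM in HLC, against 14.6, 11.2 and 14.2 CPM in LLW, a log2 fold change of 4.84 ± 0.32 (SE; adjusted p = 5.32e-10), and SPS1F (AT5G20280), a sucrose-phosphate synthase, had 198, 316 and 266 CPM in HLC, against 59.9, 52 and 52.5 CPM in LLW. The vacuolar importer TST1 (AT1G20840) had 54, 69.2 and 50.1 CPM in HLC, against 16.4, 21.7 and 22.2 CPM in LLW. On the other side ERDL6 (AT1G75220), a vacuolar glucose exporter, had 5.48, 5.71 and 6.34 CPM in HLC, against 32.3, 36.4 and 44 CPM in LLW, a change of -2.68 ± 0.16 (SE; adjusted p = 1.03e-10). STP1 (AT1G11260), a hexose carrier of the plasma membrane, had 89, 42.1 and 106 CPM in HLC, against 578, 696 and 851 CPM in LLW, and SWEET11 (AT3G48740), which exports sucrose toward the phloem, had 4.74, 5.54 and 18.3 CPM in HLC, against 66, 57.4 and 60.7 CPM in LLW. Each of the 3 carriers was below LLW in all HLC libraries. In SW none of them was lower: STP1 was higher, at 0.93 ± 0.32 (SE; adjusted p = 0.0194), and ERDL6 and SWEET11 did not pass the test, at 0.12 and 0.35. The difference between the labels was -2.81 (adjusted p = 4.7e-09) for ERDL6, -4.09 (adjusted p = 8.82e-07) for STP1 and -3.07 (adjusted p = 6.51e-05) for SWEET11. Without HLC replicate 3 the IT change of SWEET11 was -3.57, against -2.71 with it.

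Genes that leaves switch on in darkness or sugar shortage were low in HLC of IT. Of 15 tested, 12 were lower and 3 higher, at a median log2 change of -2.27; in SW 3 were lower and 5 higher. DIN10 (AT5G20250), a raffinose synthase family member known as dark-inducible, had 6.28, 4.93 and 20.7 CPM in HLC, against 748, 1349 and 1002 CPM in LLW, a change of -6.62 ± 0.58 (SE; adjusted p = 2.26e-08). SEN1 (AT4G35770), another dark-induced gene, had 0.798, 0.96 and 7.35 CPM in HLC, against 163, 278 and 249.5 CPM in LLW, and ASN1 (AT3G47340), an asparagine synthetase, had 0.0532, 1.4 and 0.577 CPM in HLC, against 21, 89.3 and 51.5 CPM in LLW. Outside this list, BXL1 (AT5G49360), a beta-xylosidase of the cell wall that sugar represses, had 1.6, 1.09 and 8.22 CPM in HLC, against 896, 1197 and 1085 CPM in LLW, a change of -8.24 ± 0.85 (SE; adjusted p = 1.94e-07). For the 4 genes every HLC library lay below every LLW library, which was a condition of the choice for DIN10, SEN1 and BXL1. HLC replicate 3 was the highest HLC library for all but ASN1. Without it the log2 changes were -7.53 for DIN10, -8.01 for SEN1 and -9.62 for BXL1. The regulators BZIP1 and AKINBETA1, both induced when energy is short, had log2 changes of -3.84 and -3.46, and the trehalose phosphate synthase family member TPS9 had -2.84. Against these, BCAT2, a branched-chain aminotransferase, rose by 4.72, or by 4.07 without HLC replicate 2, and TPS10 by 1.77. MCCA (AT1G03090), of leucine breakdown, had 9.9, 7.46 and 9.16 CPM in HLC, against 26.8, 56 and 44.6 CPM in LLW, and it fell by 2.27 in IT where its SW change was 0.62. In SW SEN1 was higher, at 1.68 ± 0.63 (SE; adjusted p = 0.0318), and DIN10 and BXL1 did not pass the test, at 0.80 and 1.33. Their differences between labels were -8.01 (adjusted p = 2.3e-06) for SEN1, -7.42 (adjusted p = 1.56e-07) for DIN10 and -9.58 (adjusted p = 6.99e-07) for BXL1. In the other IT groups BXL1 averaged 816 ± 336 CPM in high light, warm and 25.8 ± 13.7 CPM in low light, cool leaves (SD, n = 3 each).

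Antenna and photosystem transcripts were lower in HLC of IT. Of 21 antenna genes 17 were lower and 1 higher, at a median log2 change of -1.78, and of 30 nuclear photosystem and electron transport genes 23 were lower and 0 higher, at -1.27. In SW 0 antenna genes were lower and 3 higher, and 0 photosystem genes lower and 4 higher; the difference between labels passed the test for 20 of 21 and 28 of 30, where 37.1% of all genes did. LHCA3 (AT1G61520), an antenna protein of photosystem I, had 789, 261 and 694 CPM in HLC, against 1981, 2281 and 2418 CPM in LLW, a change of -1.94 ± 0.28 (SE; adjusted p = 9.01e-06). LHCB1.1 (AT1G29920), a main antenna protein of photosystem II and a near copy of other LHCB1 genes, had 2242, 563 and 1627 CPM in HLC, against 4586, 5336 and 5968 CPM in LLW, a change of -1.84 ± 0.32 (SE; adjusted p = 6.54e-05). PETE1 (AT1G76100), a plastocyanin, had 34.2, 10.5 and 29.9 CPM in HLC, against 112, 114 and 121 CPM in LLW, a change of -2.23 ± 0.31 (SE; adjusted p = 5.45e-06). In these 3 genes HLC replicate 2 was the lowest of the 6 libraries, and the other HLC libraries were also below all LLW libraries. Without it 17 antenna genes were lower, at a list median of -1.44, and 22 photosystem genes were lower and 1 higher. The exception was LHCB4.3 (AT2G40100), an antenna gene known to be induced by strong light, with 145, 51.2 and 119 CPM in HLC, against 10.4, 8.6 and 8.53 CPM in LLW, a change of 3.51 ± 0.41 (SE; adjusted p = 7.92e-07). Of 23 genes of the Calvin-Benson cycle and photorespiration, 9 were lower and 3 higher in IT, near the background share, at a median of -0.35. Without HLC replicate 2, 7 were lower and 3 higher, at -0.06. Called genes included HPR1, a photorespiratory reductase, at -1.13, and AGT1, a photorespiratory aminotransferase, at -0.93. RCA, which activates Rubisco, was at -0.77, and TKL1, a transketolase, at 0.67. In SW 0 of the 23 genes were lower and 9 higher. Of 128 plastid-encoded genes 49 were lower and 2 higher, below the background share of calls. The counts were 64 and 1 without HLC replicate 1, 32 and 4 without HLC replicate 2, and 39 and 2 without HLC replicate 3.

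Photoprotection genes did not move as a block. Of 32 tested, 11 were higher and 6 lower, near the background share, and the list median was 0.08. ELIP1 (AT3G22840), a stress-induced relative of the antenna proteins, had 236, 377 and 225 CPM in HLC, against 1.19, 0.579 and 0.434 CPM in LLW, a log2 change of 8.53 ± 0.63 (SE; adjusted p = 2.88e-09), and its copy ELIP2 (AT4G14690) had 51.8, 6.98 and 25.9 CPM in HLC, against 0.265, 0.0827 and 0.0723 CPM in LLW. LCNP (AT3G47860), a plastid lipocalin needed for sustained heat dissipation, had 44.5, 20.2 and 35.4 CPM in HLC, against 2.78, 3.31 and 2.96 CPM in LLW, a change of 3.46 ± 0.27 (SE; adjusted p = 3.75e-09), and SAPX (AT4G08390), the stromal ascorbate peroxidase, had 46.5, 34.8 and 34.8 CPM in HLC, against 6.82, 8.52 and 5.49 CPM in LLW. PSBS (AT1G44575), which triggers rapid heat dissipation, had 401, 221 and 434 CPM in HLC, against 286, 296 and 308 CPM in LLW in overlapping groups (adjusted p = 0.371), but passed the test without HLC replicate 2, at 0.50; in SW it rose by 1.49 ± 0.23 (SE; adjusted p = 2.4e-05). ZEP, which makes violaxanthin, did not pass the test either, at 0.21. Of 21 flavonoid and anthocyanin genes 11 passed the filter, and 5 were higher and 2 lower, or 4 and 4 without HLC replicate 3. CHS (AT5G13930), the first enzyme of the pathway, had 6.17, 4.32 and 22.2 CPM in HLC, against 0.53, 2.98 and 0.217 CPM in LLW, and F3H had 6.81, 15.8 and 8 CPM in HLC, against 1.72, 1.9 and 1.59 CPM in LLW. The change of CHS was 3.17 but did not pass the test without HLC replicate 3, at 2.14, and was 4.79 without LLW replicate 2. DFR, LDOX, TT8 and PAP2, genes of anthocyanin synthesis, were among the 10 too scarce to test.

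Proline and ABA genes were mixed, and some rested on 1 library. Of 13 tested, 9 were higher and 4 lower with all libraries, and 6 and 4 without HLC replicate 2. P5CS1 (AT2G39800), which commits glutamate to proline, had 793, 792 and 593 CPM in HLC, against 54.7, 31.6 and 70.0 CPM in LLW, a change of 3.80 ± 0.33 (SE; adjusted p = 1.72e-08), and PRODH1 (AT3G30775), which degrades proline, had 2.29, 6.59 and 2.74 CPM in HLC, against 26.2, 64.9 and 68.8 CPM in LLW, a change of -3.75 ± 0.42 (SE; adjusted p = 4.89e-07), or -4.41 without HLC replicate 2. Both were apart in every library. RAB18 (AT5G66400), an ABA-induced dehydrin, had 2.4, 176 and 1.59 CPM in HLC, against 0.861, 0.745 and 0.361 CPM in LLW, a change of 6.50, or 1.60 (adjusted p = 0.00131) without HLC replicate 2. RD29B (AT5G52300), another ABA-induced gene, had 0.905, 124 and 1.8 CPM in HLC, against 0.265, 0.414 and 0.0723 CPM in LLW, a change of 7.40, or 2.40 (adjusted p = 0.000153) without it. HAI1 (AT5G59220), a phosphatase that damps ABA signals, had 0.0532, 41.2 and 0.216 CPM in HLC, against 0.464, 0.331 and 0.578 CPM in LLW, a change of 4.90, or -1.81 (adjusted p = 0.208) without it. In all 3 the high HLC mean came from replicate 2. The same library was highest for GPT2 (AT1G61800), which imports glucose phosphate into plastids, with 2.87, 151 and 5.41 CPM in HLC, against 0.133, 0.0827 and 0.145 CPM in LLW, and for APL3 (AT4G39210) and APL4 (AT2G21590), sugar-induced subunits of the enzyme that makes ADP-glucose. Without HLC replicate 2 GPT2 changed by 4.98, against 8.68 with it, APL3 by 1.89 against 4.06, and APL4 by 3.67 against 6.10. All stayed past the test. GPT2 lay under 3 counts in every LLW library, so the size of its change is not resolved. HLC replicate 2 was lowest for LHCB2.3 (AT3G27690), an antenna gene, with 117, 1.7 and 233 CPM in HLC, against 645, 861 and 815 CPM in LLW, and for CA1 (AT3G01500), a carbonic anhydrase, with 807, 64.3 and 686 CPM in HLC, against 677, 957 and 932 CPM in LLW. These genes were singled out after their values were seen.

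The PR genes of the salicylic acid pathway rose, while its list as a whole was called at about the share of all genes. Of 21 defence genes tested, 10 were higher and 1 lower in IT, where 54.7% of all genes were called, and 5 were higher and 3 lower in SW. The lower gene, the salicylic acid receptor gene NPR3, was singled out after its values were seen; 0 were lower without HLC replicate 1 or 2 or LLW replicate 2 or 3, and 2 without HLC replicate 3. PR1 (AT2G14610), the standard marker of this pathway, had 1457, 414 and 1182 CPM in HLC, against 4.83, 1.24 and 2.1 CPM in LLW, a log2 change of 8.52 ± 1.15 (SE; adjusted p = 5.28e-06). PR5 (AT1G75040), a thaumatin-like protein, had 161, 180.2 and 139.5 CPM in HLC, against 2.45, 1.66 and 4.12 CPM in LLW, a change of 5.86 ± 0.76 (SE; adjusted p = 3.13e-06), and PR2 (AT3G57260), a glucanase, had 86.9, 156 and 165 CPM in HLC, against 4.24, 1.9 and 5.49 CPM in LLW. In each the groups were apart in every library, which was a condition of the choice for PR1. ICS1 (AT1G74710), which makes most salicylic acid, had 5.59, 6.67 and 12.5 CPM in HLC, against 7.22, 8.19 and 10.12 CPM in LLW, and PAD4 (AT3G52430), a defence regulator, had 17.4, 10.7 and 29.3 CPM in HLC, against 18.5, 10.09 and 18.3 CPM in LLW; neither passed the test (adjusted p = 0.939 for ICS1 and 0.576 for PAD4). Without LLW replicate 1 the change of PR1 was 9.23. In SW PR1 rose by 3.32 ± 0.89 (SE; adjusted p = 0.00455), and the difference between labels was 5.20 (adjusted p = 0.00346). LURP1 (AT2G14560), a defence gene against downy mildew, had 64.6, 37 and 118 CPM in HLC, against 0.464, 0.414 and 0.578 CPM in LLW, and PNP-A (AT2G18660), a secreted natriuretic-like peptide, had 3.83, 3.53 and 5.12 CPM in HLC, against 0.331, 0.0827 and 0.217 CPM in LLW. PNP-A rose by 4.19 in IT, and its SW change was -1.75.

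Jasmonate and phosphate genes differed more between the HLC libraries. Of 15 jasmonate genes 10 were higher and 0 lower. The counts were 12 and 0 without HLC replicate 1, 7 and 0 without HLC replicate 3, and 6 and 0 without LLW replicate 1 or 2. The groups were apart for 5 of the 15, a smaller share than the 58.6% of all genes. AOC2 (AT3G25770), a synthesis enzyme among near-identical copies, had 40.6, 73.7 and 121 CPM in HLC, against 13.3, 12.2 and 24.3 CPM in LLW, a change of 2.24 ± 0.40 (SE; adjusted p = 0.000108). PDF1.2A (AT5G44420), a defensin, had 483, 2.92 and 60.3 CPM in HLC, against 1.66, 0.993 and 4.12 CPM in LLW; it passed the test at 6.32 ± 1.15 (SE; adjusted p = 0.000137) with groups that overlapped, and without HLC replicate 1 the change was 3.77, and without LLW replicate 3 7.07. VSP2 (AT5G24770), a storage protein induced by jasmonate, had 0.479, 1.4 and 15.3 CPM in HLC, against 1.52, 0.745 and 1.74 CPM in LLW and did not pass the test (adjusted p = 0.0532). Without HLC replicate 1 it passed, at 2.57, and without HLC replicate 2, at 2.50. Each of these fits kept HLC replicate 3, the only HLC library with VSP2 above all LLW libraries. In SW VSP2 rose by 6.24 ± 0.97 (SE; adjusted p = 2.83e-05). Of 10 phosphate starvation genes 8 were higher and 0 lower, or 7 and 0 without HLC replicate 3, which was the highest HLC library for all 10. SPX1 (AT5G20150), a phosphate sensor, had 12.6, 7.98 and 119 CPM in HLC, against 2.45, 3.56 and 3.33 CPM in LLW, a change of 3.89, or 1.73 without replicate 3. PAP17 (AT3G17790), an acid phosphatase, had 15.8, 28.8 and 89.6 CPM in HLC, against 0.729, 0.662 and 0.289 CPM in LLW, and SQD2 (AT5G01220), which makes sulfolipid in place of phospholipid, had 37.5, 37.3 and 128 CPM in HLC, against 21.3, 25.7 and 23 CPM in LLW; without replicate 3 their changes were 5.30 and 0.68, against 6.29 and 1.53 with it.

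**Figure D3:**
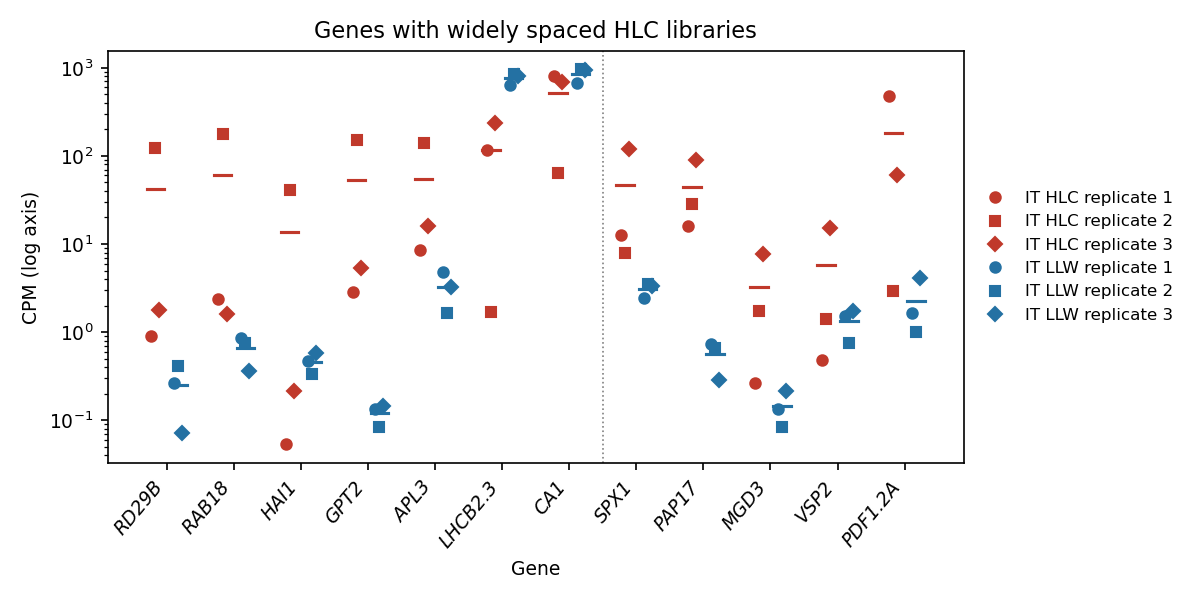
CPM (log axis) of 12 genes with widely spaced HLC libraries in the 3 HLC (red) and 3 LLW (blue) libraries of IT, with a bar at the group mean. Left of the dotted line HLC replicate 2 (squares) lies apart, for RAB18 at 176 CPM against 2.4 and 1.59 CPM; right of it HLC replicate 3 (diamonds) is highest for SPX1, PAP17, MGD3 and VSP2, and replicate 1 for PDF1.2A.

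Growth genes were low in HLC. Of 10 shade and warmth genes 9 were lower and 0 higher, in IT as in SW, with medians of -2.97 and -2.70. PKS4 (AT5G04190), a phytochrome signalling protein, had 1.92, 0.305 and 2.67 CPM in HLC, against 51, 39.9 and 46.3 CPM in LLW, a log2 change of -4.89 ± 0.41 (SE; adjusted p = 1.37e-08). HFR1 (AT1G02340), a brake on shade growth, was at the lowest value in all HLC libraries, against 8.28, 6.29 and 9.83 CPM in LLW, and at least 48.1-fold lower. PIF4 (AT2G43010), the main factor of warmth growth, had 5.8, 12.5 and 9.37 CPM in HLC, against 33.2, 39.8 and 32.2 CPM in LLW, and PIF5 had 54.1, 29.3 and 47.4 CPM in HLC, against 148, 148 and 153 CPM in LLW. Of 24 cell wall genes 17 were lower and 2 higher, with 0 higher without HLC replicate 1 or 3. TCH4 (AT5G57560), a xyloglucan-modifying enzyme, had 1.54, 1.4 and 2.38 CPM in HLC, against 135, 138 and 196 CPM in LLW, a change of -6.48 ± 0.63 (SE; adjusted p = 8.03e-08), and EXO (AT4G08950), which promotes cell expansion, had 0.426, 0.262 and 0.793 CPM in HLC, against 45, 25.5 and 30.2 CPM in LLW, a change of -6.17 ± 0.52 (SE; adjusted p = 1.28e-08). FLA9 (AT1G03870), an arabinogalactan protein, had 2.02, 0.611 and 3.96 CPM in HLC, against 122, 116 and 122 CPM in LLW, or a change of -5.84, and of -6.54 without HLC replicate 3. Every HLC library of these genes was below every LLW library, which was a condition of the choice for TCH4 and FLA9. The 2 exceptions were XTH9, at 1.89, and PME3, at 0.45; neither passed the test without HLC replicate 3, at 1.56 and 0.30, nor without some other single libraries.

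Water channels fell as widely. Of 15 aquaporins tested 13 were lower and 0 higher, at a median of -2.85, and in SW 10 were lower and 1 higher. TIP2;1 (AT3G16240), a channel of the vacuole, had 3.57, 0.523 and 3.17 CPM in HLC, against 406, 567 and 444 CPM in LLW, a log2 change of -7.64 ± 0.58 (SE; adjusted p = 3.55e-09). PIP1;3 (AT1G01620), of the plasma membrane, had 7.93, 1.66 and 9.73 CPM in HLC, against 268, 289.7 and 291 CPM in LLW, a change of -5.48 ± 0.47 (SE; adjusted p = 1.55e-08), and TIP1;2 (AT3G26520) had 77.7, 6.37 and 128 CPM in HLC, against 1187, 1229 and 1344 CPM in LLW. HLC replicate 2 was lowest for all 3, and without it their changes were -7.12, -5.00 and -3.60, the last against -4.15 with it and -4.90 without HLC replicate 3. TIP2;2 (AT4G17340) fell in IT, with 2.18, 3.4 and 2.38 CPM in HLC, against 20.1, 21.8 and 18.9 CPM in LLW, and rose in SW by 0.70 ± 0.22 (SE; adjusted p = 0.0109). Gibberellin genes were even, with 5 of 13 higher and 5 lower. GASA6 (AT1G74670), a gibberellin-responsive peptide, had 7.5, 1.09 and 14.7 CPM in HLC, against 543, 511 and 409 CPM in LLW, a change of -6.00 ± 0.64 (SE; adjusted p = 2.71e-07), or -6.84 without HLC replicate 3. The DELLA repressors GAI and RGA were lower by log2 changes of -2.57 and -1.26, and the receptor gene GID1A was higher, at 1.84. KCS12 (AT2G28630), an enzyme of fatty acid elongation, had 0.532, 0.262 and 2.45 CPM in HLC, against 124, 126 and 162 CPM in LLW, a change of -7.12 ± 0.49 (SE; adjusted p = 1.03e-09), or -8.44 without HLC replicate 3. CER1 (AT1G02205), which makes wax alkanes, had 40.6, 35.2 and 19 CPM in HLC, against 0.265, 1.07 and 0.145 CPM in LLW. KCS8 (AT2G15090), another elongation enzyme, had 12.7, 5.32 and 10.02 CPM in HLC, against 0.199, 0.248 and 0.361 CPM in LLW, a rise of 5.07, where in SW it fell, with a change of -4.64.

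**Figure D4:**
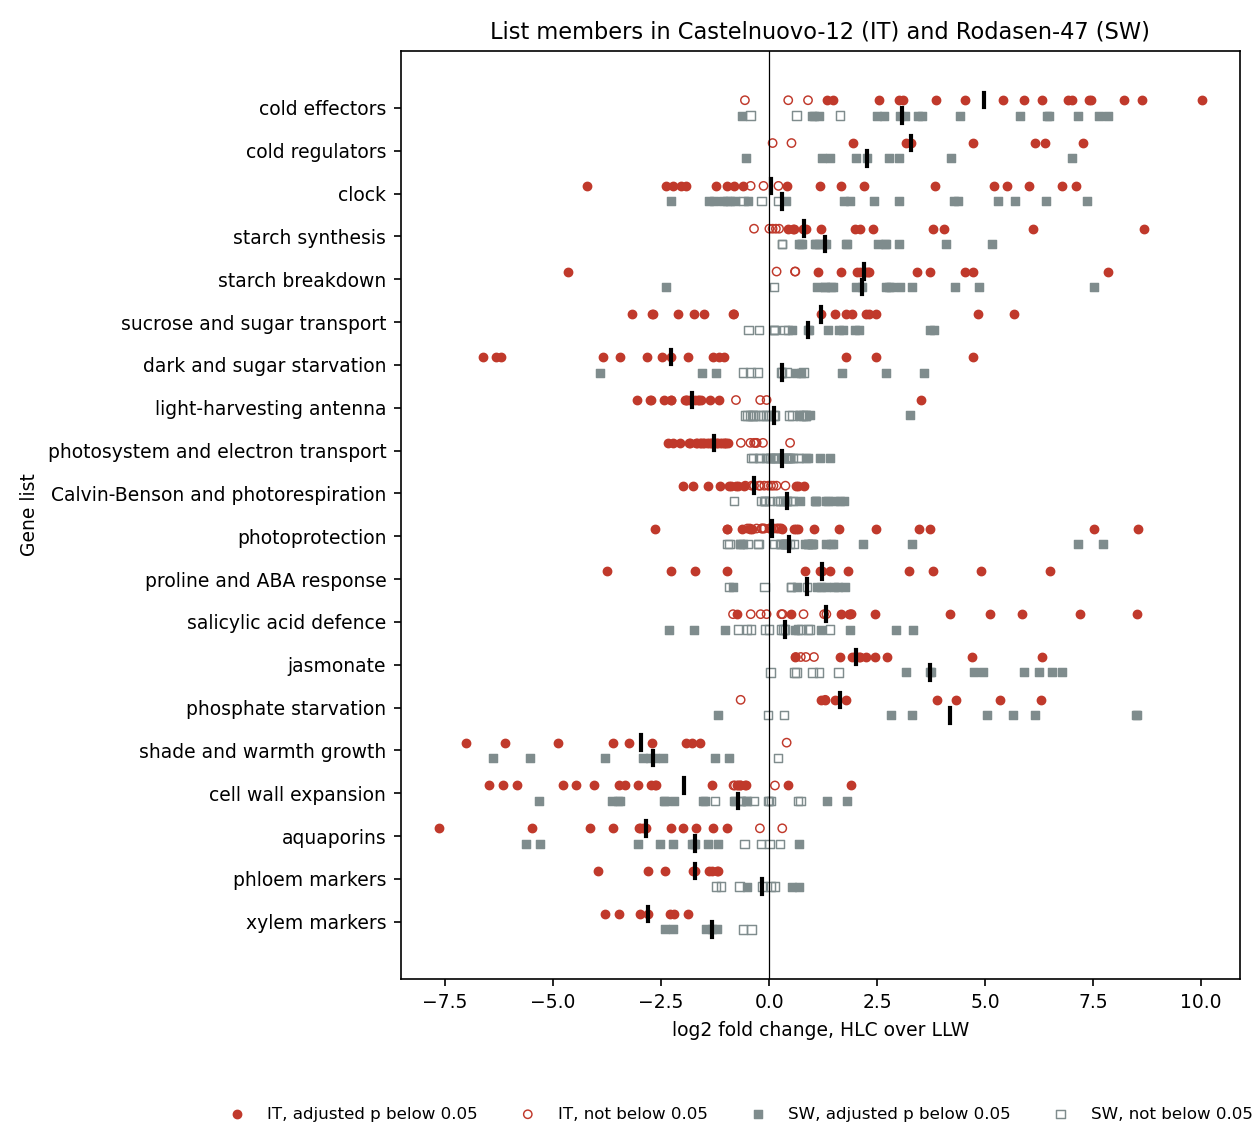
Log2 fold change of HLC over LLW for the tested members of 20 gene lists, in IT (red circles) and SW (grey squares), filled where the adjusted p is below 0.05, with a black bar at each median. Cold effectors lie mostly to the right in both, aquaporins and growth genes to the left in both, and antenna and photosystem genes to the left in IT, with 17 and 23 lower, and around 0 in SW.

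Smaller lists showed single strong changes. Those of nitrogen, ribosome biogenesis and senescence genes were called at near the background share, 54.7% of all genes. Of 8 nitrogen genes 3 were higher and 1 lower: NIA1 (AT1G77760), a nitrate reductase, had 486, 223 and 179 CPM in HLC, against 34.5, 25.3 and 23.3 CPM in LLW, a change of 3.42 ± 0.35 (SE; adjusted p = 1.51e-07). Of 8 iron genes 5 were higher and 2 lower, among them the ferritin gene FER1 (AT5G01600), with 125, 104 and 116 CPM in HLC, against 22.5, 29 and 15.5 CPM in LLW. Of 11 ribosome biogenesis genes 6 were higher and 1 lower in IT, and 1 and 4 in SW. NOP56, a snoRNP protein, and CBF5, the pseudouridine synthase of snoRNPs, had log2 changes of 1.32 and 1.22 in IT and of -0.28 and -0.54 in SW, where NOP56 did not pass the test. The nucleolin gene NUC1 (AT1G48920) had 64.8, 163 and 67.3 CPM in HLC, against 27.1, 33.7 and 31.8 CPM in LLW; its change was 1.68, or 1.103 without HLC replicate 2. Of 8 heat shock genes 1 was higher and 2 lower, with HSC70-1, a standing chaperone, at -1.32. Of 9 senescence genes 4 were higher and 1 lower, and NYC1 (AT4G13250), which degrades chlorophyll b, had 76.9, 87.7 and 76.9 CPM in HLC, against 17.4, 19.9 and 14.5 CPM in LLW. SAG13 (AT2G29350), a senescence-associated reductase, had 2.56, 17.2 and 8.44 CPM in HLC, against 0.199, 0.0827 and 0.217 CPM in LLW, with changes of 5.73 in IT, or 4.91 without HLC replicate 2, and -2.66 in SW. SAG13 lay at no more than 3 counts in every LLW library of IT, so the size of its IT change is not resolved. Of 22 glucosinolate genes 2 were higher and 6 lower, or 4 and 7 without HLC replicate 3, with CYP79B3, of indole glucosinolates, at -3.16. TGG2 (AT5G25980), a myrosinase, had 29.8, 5.63 and 94.9 CPM in HLC, against 318, 246 and 262 CPM in LLW, a change of -2.67, or -3.96 without that library. Of 100 mitochondrial genes 20 were higher and 17 lower, below the background share.

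Flowering genes gave 6 higher and 3 lower of 15 tested, near the background share of 54.7%. VIN3 (AT5G57380), a gene of vernalization induced by long cold, had 2.02, 4.23 and 2.31 CPM in HLC, against 0.199, 0.248 and 0.0723 CPM in LLW, a change of 4.01 ± 0.47 (SE; adjusted p = 6.94e-07). VIN3 lay at no more than 3 counts in every LLW library, so the size of its change is not resolved. FLC (AT5G10140), the repressor that vernalization silences, had 51.9, 38.4 and 25.2 CPM in HLC, against 26.8, 1.9 and 30.9 CPM in LLW and did not pass the test (adjusted p = 0.173). Within LLW, replicate 2 stood far below the others. MAF1 and MAF3, relatives of FLC, rose by 1.24 and 1.09 in IT, and their SW changes were -0.97 and -1.43. SOC1 (AT2G45660), a flowering activator that FLC represses, had 11.7, 23.6 and 17.5 CPM in HLC, against 10.9, 25.4 and 9.69 CPM in LLW (adjusted p = 0.657); in SW it rose by 5.81 ± 0.52 (SE; adjusted p = 4.09e-08), and the difference between labels was -5.60 (adjusted p = 1.48e-06).

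Tested markers of phloem and xylem were all called lower in HLC, and those of other leaf cell types less uniformly. Of all genes tested, 26% were called lower and 54.7% in either direction. Phloem markers summed to 121 to 166 CPM in HLC, against 329 to 458 CPM in LLW, and 9 of 9 were called lower. Xylem markers summed to 1.57 to 2.96 CPM in HLC, against 13.8 to 15.5 CPM in LLW, and 7 of 7 tested were called lower. SUC2 (AT1G22710), the sucrose loader of companion cells, had 36.9, 36.4 and 49.4 CPM in HLC, against 80.6, 124 and 77.8 CPM in LLW, and SEOR1 (AT3G01680), a sieve element protein, had 1.17, 0.131 and 1.44 CPM in HLC, against 11.3, 18.6 and 10.4 CPM in LLW. In SW 1 phloem marker was lower and 2 were higher, and 5 xylem markers were lower. Mesophyll markers summed to 5255 to 11990 CPM in HLC, against 14873 to 18044 CPM in LLW, with 2 of 4 called lower. Guard cell markers summed to 7.37 to 10.5 CPM in HLC, against 13.4 to 15.2 CPM in LLW, with 3 of 5 lower and 1 higher, but 2 lower and 0 higher without HLC replicate 2 or without HLC replicate 3, and 0 higher without HLC replicate 1 or LLW replicate 2 or 3. Epidermis markers summed to 86.1 to 125 CPM in HLC, against 112 to 138 CPM in LLW, with 3 of 4 tested lower and 1 higher, or 0 higher without HLC replicate 1. Fewer cells of a type and less RNA per cell cannot be told apart in these bulk samples. The part of these markers in the changes of sugar carriers, aquaporins, wall and photosynthesis genes was not tested. Of 4 markers of flower, seed and root, 3 were at the lowest value in all 6 libraries.

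IT and SW shared 4220 calls in the same direction, 43.6% of those in IT and 47.4% of those in SW, with no library in common. Of all genes tested, 12.2% were higher in both and 11.6% lower in both. Among genes of large change in both, PDC2 (AT5G54960), a pyruvate decarboxylase, had in IT 54.5, 209 and 140.0 CPM in HLC, against 0.795, 1.49 and 1.3 CPM in LLW, a log2 change of 6.82 ± 0.55 (SE; adjusted p = 8.85e-09), and rose by 7.38 ± 0.56 (SE; adjusted p = 5.18e-09) in SW. Lower in both were SKU5 (AT4G12420), a protein of directional root growth, with 8.57, 1.48 and 7.64 CPM in HLC, against 141, 176 and 159 CPM in LLW, XTH25 (AT5G57550), of the xyloglucan enzymes, and AAP4 (AT5G63850), an amino acid carrier. SKU5 had a log2 change of -4.77 in IT and -3.63 in SW, XTH25 -4.49 and -3.997, and AAP4 -4.44 and -3.45. Without HLC replicate 2 the IT change of AAP4 was -5.28.

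Another 1472 of the 17709 genes tested were called in opposite directions, fewer than the 4220 called in the same direction. They made up 15.2% of the calls in IT and 16.5% of those in SW, 824 higher in IT and lower in SW and 648 the reverse. The test of the difference itself called 6566 genes (37.1%), 3255 with a higher change in IT (18.4%) and 3311 with a lower one (18.7%). Immune receptor genes were among the first kind. In IT, RPP5 (AT4G16950) had 168, 131 and 110.2 CPM in HLC, against 12.7, 14.7 and 14.5 CPM in LLW, a log2 change of 3.29 ± 0.19 (SE; adjusted p = 7.61e-11), and averaged 11.8 ± 1.34 CPM in HLC and 102 ± 5.97 CPM in LLW of SW (SD, n = 3 each), a change of -3.12. SNC1 (AT4G16890) and RPP4 (AT4G16860), of the same gene cluster, had 2.37 and 2.28 in IT and -1.54 and -1.44 in SW. These 3 genes are near copies and may exchange reads. CNGC12 (AT2G46450), a cyclic-nucleotide-gated channel, had in IT 34.3, 32.6 and 29.8 CPM in HLC, against 9.6, 10.3 and 9.47 CPM in LLW, and changes of 1.72 in IT and -0.96 in SW. HPA1 (AT5G10330), of histidine synthesis, had changes of 1.52 in IT and -1.34 in SW. Of the reverse kind, WRR4 (AT1G56510), an immune receptor gene against white rust, had in IT 1.22, 0.916 and 4.11 CPM in HLC, against 63.4, 59.98 and 78.7 CPM in LLW, a change of -5.10 ± 0.40 (SE; adjusted p = 5.05e-09), or -5.98 without HLC replicate 3, and 1.83 in SW. P5CR (AT5G14800), the last step of proline synthesis, had in IT 11.8, 8.51 and 12.5 CPM in HLC, against 21.7, 21.6 and 21.2 CPM in LLW, and changes of -0.98 in IT and 1.75 in SW. AAK6, an adenylate kinase, changed by -1.56 in IT and 0.57 in SW, ILP1, a splicing factor, by -0.92 and 0.77, and FH6, a formin, by -0.98 and 2.04. Since the sets lie the other way round in SW, a gene called in opposite directions is high in the groups that share a set. Label and transcript set cannot be told apart from the HLC and LLW libraries alone. In low light, cool leaves RPP5 averaged 111 ± 29.2 CPM in IT and 145 ± 19.2 CPM in SW (SD, n = 3 each). In high light, warm leaves it averaged 14.2 ± 0.51 and 12.3 ± 1.34 CPM. P5CR averaged 8.01 (IT) and 5.85 CPM (SW) in the former, and 25.5 and 19.1 CPM in the latter. Both were first of their kind by adjusted p. Set and light move together in those groups, and the part of either was not tested.

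**Figure D5:**
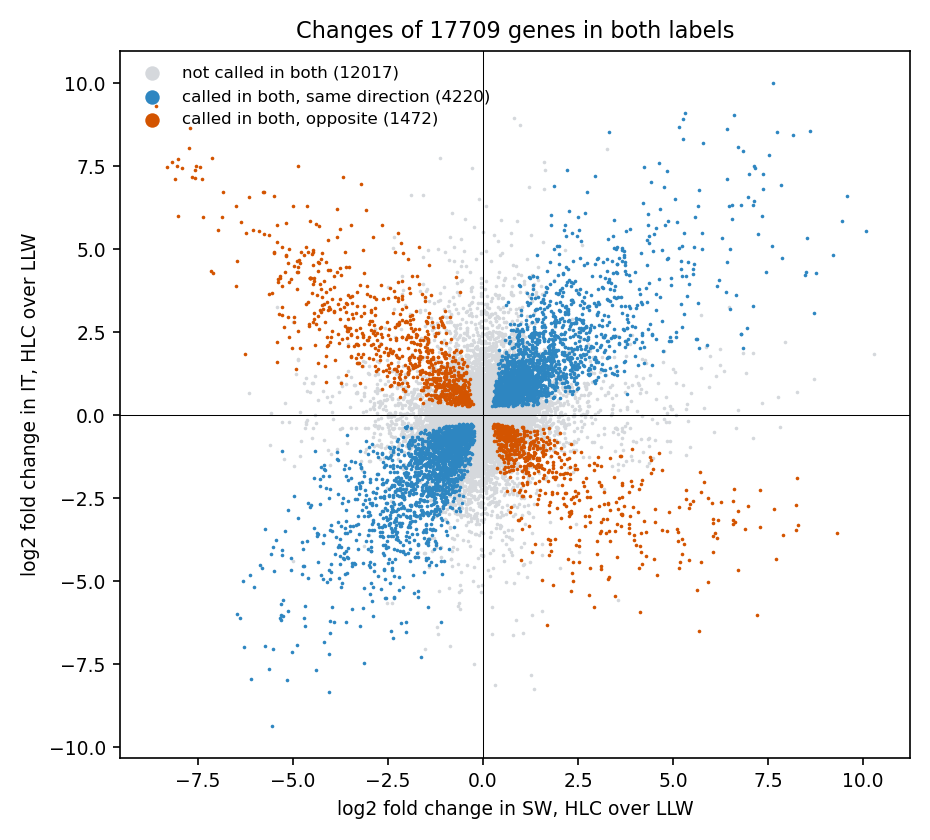
Log2 fold change of HLC over LLW in IT (vertical axis) against SW (horizontal axis) for 17709 genes. Blue points, 4220 genes called in both in the same direction, fill the lower left and upper right, and orange points, 1472 genes called in opposite directions, the other corners.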

How the data were processed

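RNA was sequenced from rRNA-depleted total RNA of leaf discs, and the authors deposited 1 table of counts for 33610 identifiers in 24 libraries. Per the submitters' processing notes, HISAT, StringTie, DESeq2 and the TAIR10 build were used; the sources used here give no versions and do not say whether strand was used in counting. Every count in the deposited table is at least 1, with 0 cells at 0, so 1 stands for the lowest value. Columns were matched to samples by the library code in each description. By locus, 28932 identifiers were matched to RefSeq's gene table, and 4678 were not.

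Counts were tested with edgeR 4.0.16 (limma 3.58.1, R 4.3.3): TMM, a filter of 10 counts (15 in total), robust quasi-likelihood fit of 8 groups over 24 libraries, and Benjamini-Hochberg adjustment over all genes tested. The threshold was an adjusted p of 0.05. CPM use TMM-scaled library sizes, and SE is the log2 fold change over the root of F. CPM levels are compared within a gene only. The fit was tested on simulated data with known changes. The 6 library totals of 14933144 to 16860963 counts and a median biological coefficient of variation of 0.165 set the precision. Alternatives were DESeq2 1.42.0, its size factors in edgeR, other filters, organelle and rRNA genes removed, 1 subtracted from every count, fewer libraries, a replicate block, and each library left out.

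Members and lists were chosen with earlier results of these data known. Genes were named by a rule: 8 per direction by largest change, 6 per direction of largest joint change in IT and SW, 5 per direction of opposite change with the smallest adjusted p, each at a mean log2 CPM of at least 3, and up to 4 members per list with the smallest adjusted p. The 8 per direction also needed groups that did not overlap and no group at the lowest value in all its libraries. They needed the same call without HLC replicate 3 as well. For them these traits are conditions of the choice and not results. Other list members named were chosen after their values were seen. A gene at the lowest value in all libraries of a group gets only a bound, against 3 counts per library. Promoter windows were read by locus from RefSeq's TAIR10.1 genome, since the count table holds no coordinates.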

Additional observations from a re-analysis of the deposited data

Results flagged for a closer look

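For 83 of 146 genes named in the text, the HLC against LLW change differed between libraries labelled IT and SW by the test of the difference itself (edgeR, adjusted p below 0.05), and 63 did not pass it. All values here are differences of log2 fold changes, IT minus SW, so a positive one means a higher change in IT. In both contrasts the transcript set moves with the regime, in opposite ways, and its part in these differences was not tested.

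Among cold and clock genes the difference was 2.19 for RD29A, 2.61 for GRP7, 2.92 for COR47, 2.45 for KIN2, 2.41 for LTI30, 3.89 for CBF2, 0.63 for ICE1 and 0.84 for TOC1, all higher in IT, and -0.76 for LNK2 and -5.94 for RVE7. Proline and ABA genes gave 2.49 for P5CS1 and 6.60 for RAB18, the last resting on HLC replicate 2, and -4.26 for PRODH1 and -2.73 for P5CR. Of starch and sugar genes, 1.01 for PWD, 2.99 for APL3, 1.13 for SUS1, 0.54 for SPS1F and 1.00 for TST1 were on the positive side, with an IT change of 4.06 for APL3, or 1.89 without HLC replicate 2, and -2.26 for BAM9, -2.81 for ERDL6, -4.09 for STP1 and -3.07 for SWEET11 on the negative side.

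Genes of darkness and low sugar had large negative differences, -9.58 for BXL1, -8.01 for SEN1, -7.42 for DIN10, -2.89 for MCCA, -2.61 for BZIP1, -2.57 for TPS9 and -1.91 for AKINBETA1, while that of TPS10 was 1.02. Photosynthesis genes lay on the same side, with -1.60 for LHCA3, -1.69 for LHCB1.1, -3.50 for LHCB2.3, -1.82 for PETE1, -1.53 for HPR1, -1.19 for AGT1, -0.68 for RCA, -1.07 for TKL1, -1.24 for PSBS and -0.70 for ZEP, and SAPX stood against them at 2.09.

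For salicylic acid defence genes the difference passed the test for 8 of 21, near the 37.1% of all genes. The defence genes named that passed it had positive differences, 5.20 for PR1, 4.38 for PR2, 4.96 for PR5, 4.27 for LURP1 and 5.94 for PNP-A. So did the receptor genes with 6.41 for RPP5, 3.72 for RPP4 and 3.91 for SNC1, and CNGC12 with 2.68. The opposite sign was found for WRR4 at -6.93, and for the jasmonate genes AOC2 at -2.71 and VSP2 at -4.23. TGG2, the myrosinase gene, had -4.01. The difference passed the test for 3 of 10 shade and warmth genes and 8 of 24 cell wall genes, each below the share of all genes. It did so for 10 of 15 aquaporins. The growth genes named that passed it had -4.06 for TCH4, -2.40 for FLA9, -0.84 for PIF5, -2.99 for GAI, -3.03 for FH6 and -0.89 for PME3. The water channel genes named had -2.02 for TIP2;1, -3.62 for TIP2;2, -2.42 for TIP1;2 and -3.76 for PIP1;3. KCS12 had -2.10, against 9.71 for KCS8.

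The remaining positive differences were 3.72 for NIA1, 2.07 for NUC1, 1.75 for CBF5, 1.59 for NOP56, 0.81 for NYC1, 8.39 for SAG13, 2.86 for HPA1, 2.21 for MAF1, 2.52 for MAF3 and 3.73 for FLC, and the remaining negative ones -5.60 for SOC1, -1.30 for SQD2, -2.12 for AAK6, -1.70 for ILP1, -1.89 for SUC2 and -2.74 for SEOR1.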

How the results depend on the processing

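Under the alternatives run, all 68 values of the 4 counts of calls below lay within 1.5 times the count reported. The 5066 higher and 4612 lower genes ranged over 3806 to 5398 and 3498 to 4830, both lowest when only the 6 IT libraries were fitted, and DESeq2 gave 4667 and 4737. Leaving out 1 library at a time gave 4455 to 4987 higher and 4137 to 4531 lower genes, 5832 to 6979 genes for the difference between IT and SW and 3710 to 4242 genes changed the same way in both. With the replicate number as a block (replicate block) the counts were 4961, 4560, 6363 and 4113. The numbers did not pair the libraries, since deviations of same-numbered HLC and LLW libraries correlated across genes at 0.0013, -0.103 and -0.0156.

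Of 2032 values of named genes under the alternatives, 2011 kept direction and side of the threshold, 14 lost the call, 6 gained one and 1 turned round: HAI1, at -1.81 without HLC replicate 2 and up to 5.48 with another library left out. RCA, LHCB2.3, TKL1, XTH9 and PME3 missed the threshold when only the 6 IT libraries were fitted. DESeq2's size factors moved the median of all genes by -0.04 on the log2 scale and set the share of calls that were higher to 50%, against 52.3%. Subtracting the table's lowest value of 1 from every count gave 4962 and 4490 calls. The authors' values start at 1, so genes near that value have no resolved level there. In LLW of IT these include the CBF genes, GOLS3, GPT2, FKF1, PRR3, ELIP2, VIN3 and SAG13.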
